A study of Mus musculus with 7 samples.

Results

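The crypt base stem cell markers described here are 10 genes, Lgr5, Ascl2, Olfm4, Smoc2, Slc12a2, Rgmb, Cdca7, Lrig1, Tnfrsf19 and Msi1. They were chosen as known markers of the cycling stem cells of the small intestine, and their symbols were matched to 10 of the 55414 Ensembl identifiers of a raw count table. The table holds bulk RNA-seq of Paneth cells (PCs) that were purified by cell sorting from the small intestine of C57BL/6J mice 15 h after an injection. The 3 control mice received phosphate-buffered saline (PBS), the 4 treated mice received tumour necrosis factor (TNF), an inflammatory cytokine, and each library came from a different mouse. No transgene, deletion or second agent is given for either group, and the sources used here do not give the dose, the age and sex of the mice or the sorting gate.

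Crypt base columnar stem cells sit between the PCs at the bottom of the crypt and divide to renew the epithelium. They depend on Wnt signals, part of which come from the neighbouring PCs, and R-spondins bound by LGR receptors keep Wnt receptors at the cell surface. ASCL2 is the transcription factor that maintains the stem cell programme, whereas OLFM4 and SMOC2 are secreted products by which these cells are often recognised. Several of the markers are not exclusive to stem cells, since dividing progenitors and secretory precursors also express some of them.

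After TNF, 9 of the 10 markers were lower, 0 were higher and 1, Slc12a2, was not called by the quasi-likelihood test of edgeR at a Benjamini-Hochberg adjusted p under 0.05. Among all 14329 genes tested, 30.1% were called lower, 29.5% higher and 59.6% in either direction, so most tested genes of these libraries changed. In the same 9 markers every TNF library lay below every PBS library, compared with 30.9% of all tested genes, while 29.9% of tested genes had every TNF library above every PBS library. The median log2 fold change of the 10 markers was -1.32, beside 0.0017 over all tested genes. Of the 9, 7 were called and at least 2-fold lower, compared with 17.2% of all tested genes that met both conditions. DESeq2 also called 9 lower and 0 higher, and 0 were higher in edgeR at an unadjusted p under 0.05.

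Values per library are CPM, read counts normalised to library size with trimmed means of M-values (TMM), and errors of log2 fold changes are SE. Total counts ran from 15511455 to 19193721. In bulk libraries, fewer cells of a type and less RNA per cell cannot be told apart, and this holds for each marker below. Lyz1, the lysozyme of PC granules, was at 96515 ± 17916 CPM after PBS (SD, n = 3) and at 118730 ± 28082 CPM after TNF (SD, n = 4), and was not called (log2 fold change 0.30 ± 0.32, edgeR adjusted p = 0.444). Lyz1 was thus abundant in both groups, but of 15 PC markers 3 were called lower and 5 higher. The purity of the sort was not tested.

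Lgr5 encodes an R-spondin receptor and is the marker by which crypt base columnar cells were defined (ENSMUSG00000020140, GRCm39 chr10:115286216-115423685, minus strand). It was at 149, 145 and 169 CPM in PBS replicates 1 to 3 and at 37.8, 28.4, 33.1 and 24.0 CPM in TNF replicates 1 to 4. The groups did not overlap, and the lowest PBS library stood well above the highest TNF library. Lgr5 was 5.01-fold lower after TNF, with a log2 fold change of -2.32 ± 0.14 (edgeR adjusted p = 1.11e-08).

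Ascl2 had the largest fall of the 10 (ENSMUSG00000009248, GRCm39 chr7:142520564-142523006, minus strand). The PBS libraries held 203, 315 and 249 reads of it and the TNF libraries 11, 15, 9 and 3. In CPM these were 12.5, 16.0 and 13.2 after PBS and 0.616, 0.884, 0.482 and 0.196 after TNF. All PBS libraries were above all TNF libraries, and TNF replicate 4, with 3 reads, was lowest. The log2 fold change was -4.65 ± 0.33 (edgeR adjusted p = 4.79e-08), a 25-fold lower level, and 0.796% of tested genes had a lower log2 fold change.

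Promoter sequence was looked up for the 3 largest falls among markers with a listed start, which were Ascl2, Rgmb and Cdca7. The Cdca7 sequence was left out, because most of its bases before the start lie in first exons of the GENCODE annotation. RefSeq on GRCm38.p6 listed a start for 6 of the 10 markers (Ascl2, Olfm4, Rgmb, Cdca7, Lrig1 and Tnfrsf19). The sequences of Ascl2 and of Rgmb, a gene described below, run from 250 to 11 bases before the listed start, 5′ to 3′ on the gene's strand. Rgmb has 3 listed starts, of which the most upstream one was used.
Ascl2, GRCm38.p6 chr7:142969275-142969514, minus strand: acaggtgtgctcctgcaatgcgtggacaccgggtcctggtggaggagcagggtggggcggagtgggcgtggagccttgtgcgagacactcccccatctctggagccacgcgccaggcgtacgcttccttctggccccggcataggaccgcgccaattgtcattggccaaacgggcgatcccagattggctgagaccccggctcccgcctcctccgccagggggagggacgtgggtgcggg
Rgmb, GRCm38.p6 chr17:15831257-15831496, minus strand: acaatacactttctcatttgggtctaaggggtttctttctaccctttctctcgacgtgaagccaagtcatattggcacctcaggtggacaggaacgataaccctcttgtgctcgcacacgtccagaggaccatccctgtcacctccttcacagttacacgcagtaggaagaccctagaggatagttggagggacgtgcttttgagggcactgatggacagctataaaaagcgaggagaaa
Neither sequence has capitals, because none of the motifs searched was found in the 250 bases before either start.

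The motifs were searched on both strands in the 250 bases before each listed start, and a match is a description and not a binding site. TCF/LEF motifs, the letters bound by the Wnt effectors of that name (CTTTG with A or T at each of the next 2 positions), occurred in 0 of the 6 marker promoters and in 14.9% of 27025 promoters of the table. The E-box CAGCTG occurred in 0 of 6 and in 12.7% of promoters. The letters TGGGAA of the Notch effector RBPJ occurred before Olfm4 and Cdca7, thus in 2 of 6, and in 21.5% of promoters. The NF-kB motif, the letters bound by the main transcription factor downstream of TNF receptors, occurred before 1 of the 6, Olfm4, and in 3.74% of promoters. In the GENCODE annotation, most of the bases searched before Cdca7 lie in first exons, and the NF-kB matches before Olfm4 reach into a first exon. The Olfm4 stretch, chosen after its values and matches were seen, lies 62 to 33 bases before the listed start. Its capitals mark 2 overlapping matches on opposite strands.
Olfm4, GRCm38.p6 chr14:80000240-80000269, plus strand: gctggccatgGGGAAATCCCCactgggagc

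Olfm4 encodes olfactomedin 4, a secreted glycoprotein abundant in crypt base cells of the small intestine (ENSMUSG00000022026, GRCm39 chr14:80221521-80260579, plus strand). Its values were 2032, 2328 and 3126 CPM after PBS and 1414, 816, 1065 and 1387 CPM after TNF. The groups did not overlap, but they came closer than those of Lgr5 or Ascl2, and both groups were wide. The fall was 2.13-fold (edgeR adjusted p = 0.000432).

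Smoc2 encodes a secreted calcium-binding matrix protein (ENSMUSG00000023886, GRCm39 chr17:14499735-14625074, plus strand). It was at 213, 209 and 226 CPM after PBS and at 136, 113, 110 and 155 CPM after TNF. The PBS libraries lay close together and all above the TNF libraries, of which replicate 4 was highest. The log2 fold change was -0.75 ± 0.12 (edgeR adjusted p = 0.000143), and at 1.68-fold it was the smallest fall of the 9.

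Rgmb encodes a membrane-anchored co-receptor for bone morphogenetic proteins (ENSMUSG00000048027, GRCm39 chr17:16022655-16051513, minus strand). PBS libraries were at 351, 307 and 355 CPM and TNF libraries at 64.0, 64.1, 64.8 and 62.6 CPM. The 4 TNF libraries were nearly equal, with an SD of 0.938 CPM around 63.9, and stood far below the PBS libraries. The log2 fold change was -2.40 ± 0.10 (edgeR adjusted p = 3.85e-10), the lowest adjusted p of the 10, and the level was 5.28-fold lower.

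Lrig1 encodes a membrane protein that restrains epidermal growth factor receptors (ENSMUSG00000030029, GRCm39 chr6:94581510-94677242, minus strand). It was at 241, 201 and 244 CPM after PBS and at 103, 101, 105 and 126 CPM after TNF. The groups did not overlap, and TNF replicate 4 stood above 3 close TNF values. The fall was 2.10-fold, with a log2 fold change of -1.07 ± 0.11 (edgeR adjusted p = 2.49e-06). Exons of Lrig1 share 1475 bases with Slc25a26 on the opposite strand, which held 282 reads after PBS and 565 after TNF. The sources used here do not say whether counting used strand, so reads of this stretch cannot be told apart.

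Tnfrsf19 encodes TROY, an orphan receptor of the TNF receptor superfamily, and was the least abundant marker after PBS when scaled by length (ENSMUSG00000060548, GRCm39 chr14:61201283-61284366, minus strand). It was at 11.9, 12.2 and 16.4 CPM after PBS and at 6.60, 5.78, 8.51 and 9.95 CPM after TNF. No value overlapped, although TNF replicate 4 came close to the lowest PBS library. The log2 fold change was -0.81 ± 0.21 (edgeR adjusted p = 0.00481), a 1.75-fold lower level.

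Slc12a2 encodes the sodium, potassium and chloride cotransporter of basolateral membranes, which feeds chloride secretion in crypts (ENSMUSG00000024597, GRCm39 chr18:58011164-58080812, plus strand). It was at 921, 891 and 1093 CPM after PBS and at 1013, 972, 1005 and 1106 CPM after TNF. The groups overlapped, and PBS replicate 3 lay among the TNF values. The log2 fold change was 0.08 ± 0.13 (edgeR adjusted p = 0.603), with a 95% interval from -0.19 to 0.35. That interval leaves out a fall as large as any fitted for the other 9 markers.

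Cdca7 and Msi1 encode intracellular regulators. Cdca7 is a nuclear protein linked to DNA methylation and cell division (ENSMUSG00000055612, GRCm39 chr2:72306341-72317240, plus strand). It was at 59.2, 82.3 and 93.3 CPM after PBS and at 27.7, 21.9, 22.4 and 27.6 CPM after TNF. The PBS libraries were spread and the TNF libraries close, without overlap, and the log2 fold change was -1.65 ± 0.15 (edgeR adjusted p = 7.52e-07). Msi1, Musashi 1, is an RNA-binding protein of stem and progenitor cells (ENSMUSG00000054256, GRCm39 chr5:115567419-115593757, plus strand). Its PBS libraries were at 90.6, 96.7 and 90.6 CPM and its TNF libraries at 36.0, 27.2, 34.8 and 28.1 CPM. The groups were well apart, and the log2 fold change was -1.55 ± 0.12 (edgeR adjusted p = 1.01e-07).

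**Figure D1:**
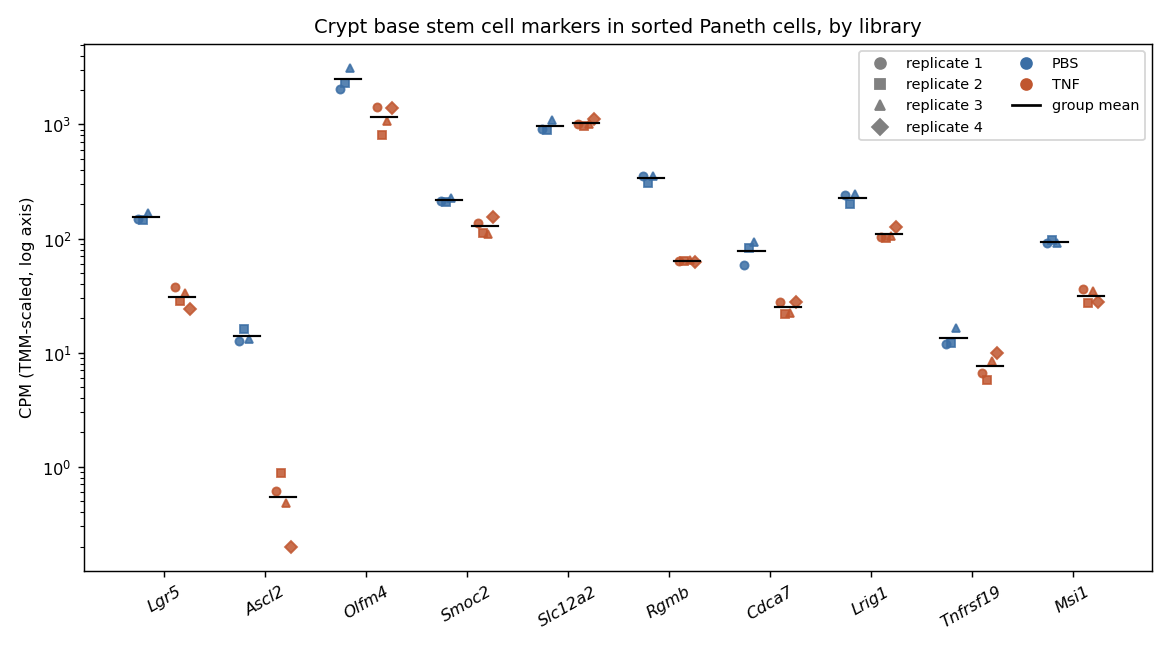
CPM of each of the 10 markers in every library on a log axis, with PBS in blue, TNF in orange, 1 symbol per replicate number and a line at each group mean. All TNF points lie below all PBS points for every marker other than Slc12a2, and the gap is widest for Ascl2.

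When CPM were divided by the merged exon length to compare levels between genes, Olfm4 stood far above the rest in both groups, at 836 CPM per kb after PBS and 392 CPM per kb after TNF. After PBS, Slc12a2 followed at 76.2 CPM per kb, then Lrig1 at 36.1, Rgmb at 26.8, Smoc2 at 23.2, Cdca7 at 18.3, Msi1 at 15.3, Lgr5 at 15.0, Ascl2 at 8.54 and Tnfrsf19 at 1.81 CPM per kb. Of the neighbours in this order, Cdca7 and Msi1 overlapped in their libraries, as did Msi1 and Lgr5, and all other neighbours were apart; Cdca7 also overlapped Lgr5. After TNF, Slc12a2 stood at 80.6 CPM per kb, then Lrig1 at 17.2, Smoc2 at 13.8, Cdca7 at 5.82, Msi1 at 5.22, Rgmb at 5.07, Lgr5 at 3.00, Tnfrsf19 at 1.03 and Ascl2 at 0.334 CPM per kb. There the libraries of Lrig1 and Smoc2, of Cdca7 and Msi1, and of Msi1 and Rgmb overlapped, as did those of Cdca7 and Rgmb. Ascl2 stood above Tnfrsf19 in all PBS libraries and below it in all TNF libraries, and Rgmb did likewise with Smoc2, whereas after TNF its place among Cdca7 and Msi1 was not resolved.

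The markers did not follow 1 common order of libraries. Over the 9 that fell, PBS replicate 3 was the highest PBS library for 7 and the lowest for 0. Among TNF libraries, replicate 1 was highest for 4 and lowest for 0, replicate 2 was lowest for 5, and replicate 4 was highest for 3 and lowest for 3. TNF replicate 4 was lowest for Lgr5 and Ascl2 but highest for Smoc2, Lrig1 and Tnfrsf19. Summed over all 10 markers, the PBS libraries held 4081, 4289 and 5425 CPM and the TNF libraries 2839, 2150, 2449 and 2926 CPM, so the sums did not overlap either.

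**Figure D2:**
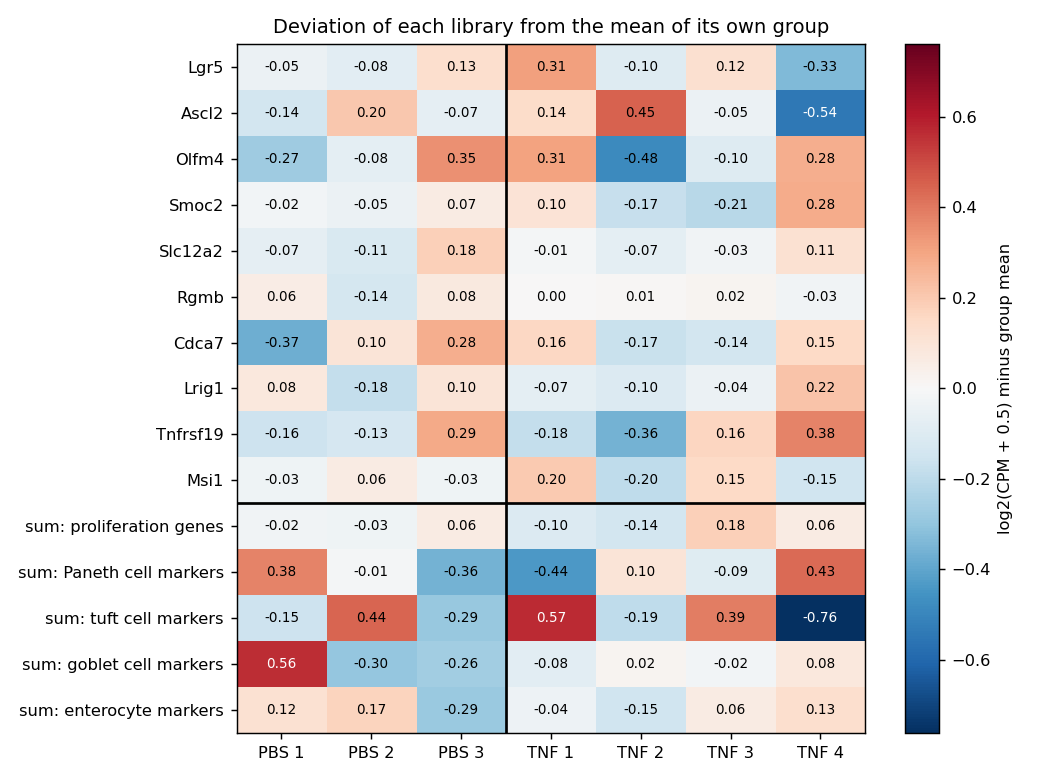
Difference of each library from the mean of its own group, on the scale of log2(CPM + 0.5), for the 10 markers and for the summed CPM of 5 gene lists. Red cells are above the group mean and blue cells below; TNF replicate 4 is low for Lgr5, Ascl2 and the tuft cell sum and high for the PC sum.

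Markers of other cells that a PC sort could hold were read beside these values. The summed tuft cell markers, a list of 10 led by Dclk1, ran from 1702 to 2827 CPM after PBS and from 356 to 894 CPM after TNF. All 10 were called lower in edgeR, with a median log2 fold change of -1.37, although only 6 passed without the filter on low counts. Among the TNF libraries the tuft cell sum had the same order as Lgr5, with replicate 1 highest, then 3, then 2 and then 4, but Ascl2 had another order. Among the PBS libraries the orders were opposite, since replicate 2 was highest and 3 lowest for the tuft cell sum and the reverse held for Lgr5. Enterocyte markers summed to between 434 and 595 CPM after PBS and between 109 and 132 CPM after TNF. Of the 9 tested of 12, 7 were lower and 1, Slc5a1, was higher. Anpep alone ran from 309 to 448 CPM after PBS and from 41.0 to 49.7 CPM after TNF, and PBS reads of Apoa1, Apoa4 and Lct came mostly from replicate 2. Goblet cell markers summed to between 11410 and 20660 CPM after PBS and between 9884 and 11070 CPM after TNF, and of 10, 6 were lower and 1, Ccl9, was higher, or 2 higher without PBS replicate 1. The call of Slc5a1 was lost with total counts only. The part of tuft cells, enterocytes and goblet cells in the lower stem cell markers was not tested.

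PC markers summed to between 189200 and 315500 CPM after PBS and between 178100 and 326200 CPM after TNF, which overlapped. Of these 15 genes, 3 were lower, 5 were higher and 7 were not called, with a median log2 fold change of 0.17. The number lower was 6 with total counts only and 5 without PBS replicate 3. Enteroendocrine markers summed to 56.4 to 184 CPM after PBS and 58.1 to 91.0 CPM after TNF. Of 10, 4 were lower, or 2 without PBS replicate 1, and 1 was higher, Tac1, a precursor of substance P. Tac1 was at 2.72, 2.09 and 0.318 CPM after PBS and at 38.8, 35.6, 32.5 and 57.6 CPM after TNF. Without it, the sums no longer overlapped, at 56.0 to 182 CPM after PBS and 22.5 to 35.3 CPM after TNF, below the PBS values as for the stem cell markers. The part of enteroendocrine cells in those markers was not tested.

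Leukocyte markers were at 28.9 to 38.3 CPM after PBS and 43.5 to 58.8 CPM after TNF, and Cd3e had 0 counts. Of the 5 tested of 10, 1 was higher, Cd14, a co-receptor for bacterial lipopolysaccharide, at 3.96, 5.09 and 3.61 CPM after PBS and 27.5, 29.2, 32.2 and 31.9 CPM after TNF. Without Cd14 the sums were 24.9 to 33.2 CPM after PBS and 16.1 to 26.6 CPM after TNF and overlapped. Ptprc, the pan-leukocyte antigen CD45, was called lower, and 2 leukocyte markers were higher without PBS replicate 3. The call of Ptprc was lost in 6 of 15 alternatives, among them without PBS replicate 2 or TNF replicate 1, 2 or 4. Stromal and endothelial markers summed to at most 0.504 CPM in any library and erythroid markers to at most 0.053 CPM, and none of these 15 genes was tested.

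Genes of intestinal position moved with the groups too. Genes of the proximal small intestine summed to between 178 and 216 CPM after PBS and between 33.5 and 45.7 CPM after TNF, and 5 of the 6 tested of 8 were lower. Ileal genes summed to between 27.6 and 45.3 CPM after PBS and between 68.7 and 75.8 CPM after TNF, and of the 4 tested of 10, 3 were higher and 1 was lower. This balance depended on the filter on low counts, since 4 were higher and 4 lower without it, as with DESeq2, and 2 were lower without PBS replicate 1. Without Hoxb9, the most abundant, the ileal sums overlapped, at 19.9 to 33.8 CPM after PBS and 25.9 to 29.2 CPM after TNF. The part of intestinal position in the changes of the stem cell markers was not tested.

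Each marker was next set beside its closest relatives, to see whether whole gene families moved. Of 18 paralogues listed, 9 had enough reads to be tested, of which 5 were lower, 1 was higher and 3 were not called. Lgr4, the more broadly expressed R-spondin receptor, was at 669, 476 and 549 CPM after PBS and at 242, 220, 259 and 277 CPM after TNF. The groups did not overlap, and the log2 fold change was -1.18 ± 0.13 (edgeR adjusted p = 3.62e-06). Rgma, the sister co-receptor of Rgmb, was lower by a log2 fold change of -2.59 ± 0.47 (edgeR adjusted p = 0.000382). Cdca7l, the close relative of Cdca7, was lower with -1.40 ± 0.25 (edgeR adjusted p = 0.000238). Eda2r, a receptor of ectodysplasin A2 in the family of Tnfrsf19, was lower with -1.68 ± 0.21 (edgeR adjusted p = 1.32e-05).

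The Lrig genes differed in direction. Lrig3 was at 21.2, 23.5 and 21.5 CPM after PBS and at 41.8, 51.2, 51.7 and 54.2 CPM after TNF. All TNF libraries were above all PBS libraries, and the log2 fold change was 1.17 ± 0.12 (edgeR adjusted p = 2.09e-06). Lrig2 was at 27.4 ± 3.24 CPM after PBS and 26.3 ± 1.14 CPM after TNF (SD, edgeR adjusted p = 0.708). Msi2 was at 164 ± 7.84 CPM after PBS and 133 ± 17.9 CPM after TNF (edgeR adjusted p = 0.0335). Its call was lost in 6 of 15 alternatives, among them without PBS replicate 1 or 2 or TNF replicate 2 or 4.

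The remaining relatives were scarce. Smoc1 held 17 reads after PBS, all in replicate 1, and 71 after TNF (edgeR adjusted p = 0.229), and without PBS replicate 1 it was called higher (edgeR adjusted p = 0.00297). Slc12a3 was at 1.39 ± 0.581 CPM after PBS and 0.733 ± 0.425 CPM after TNF (edgeR adjusted p = 0.188). Lgr6, Ascl3, Olfm1, Olfm2, Olfm3, Slc12a1, Hjv and Edar were among those not tested, and Olfm3 and Hjv had 0 counts in every library.

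**Figure D3:**
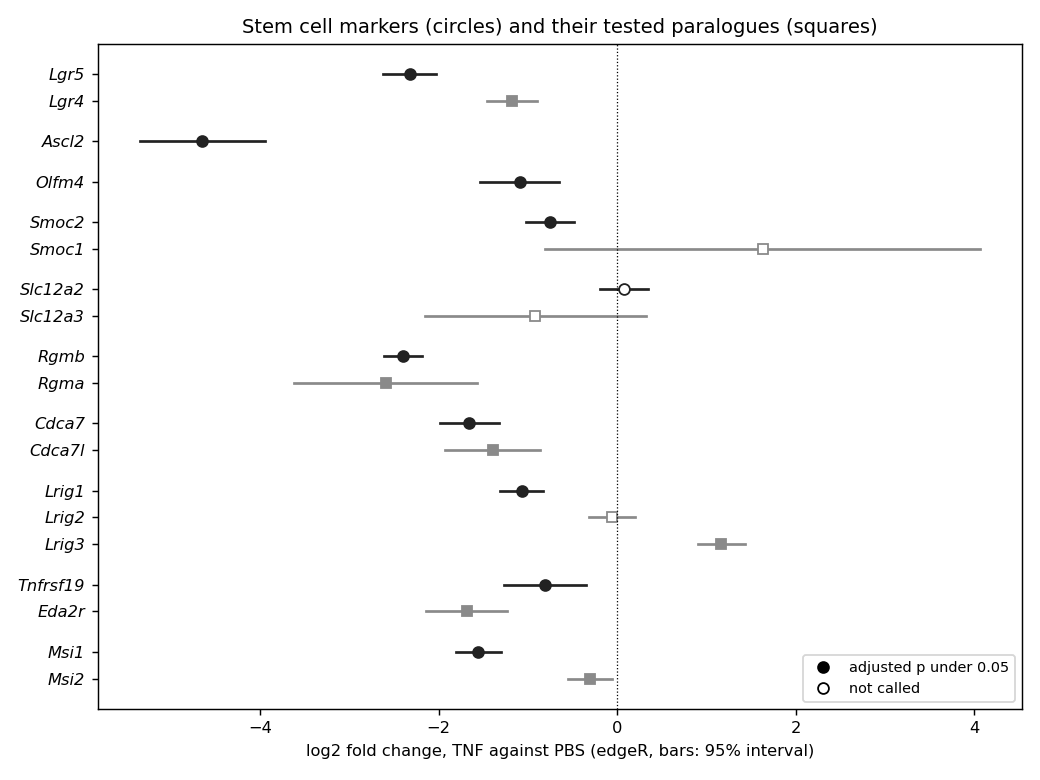
Log2 fold change, TNF against PBS, of the 10 markers (circles) and their 9 tested paralogues (squares), with 95% intervals from edgeR and open symbols for genes not called. Lgr5 lies left of Lgr4 and Msi1 left of Msi2, and Lrig1 and Lrig3 lie on opposite sides of 0.

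The ratio of a marker to its relative within a library does not depend on how libraries are scaled. The mean log2 ratio of Lgr5 to Lgr4 counts was -1.86 ± 0.26 after PBS and -3.03 ± 0.36 after TNF (SD), a difference of -1.17. For Msi1 to Msi2 it was -0.83 ± 0.02 after PBS and -2.08 ± 0.05 after TNF, a difference of -1.25. For Lrig1 to Lrig3 it was 3.37 ± 0.24 after PBS and 1.13 ± 0.15 after TNF, a difference of -2.23. In each of these pairs all TNF libraries were below all PBS libraries, with p = 0.0286 in an exact permutation test over all 35 assignments of the libraries (two-sided), the smallest p this design allows. After adjustment over the 6 pairs tested it was 0.0571 for each, so 0 of the 6 passed.

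In the other 3 of these pairs the groups overlapped. The log2 ratio of Rgmb to Rgma differed by 0.23 (exact permutation p = 0.8) and that of Cdca7 to Cdca7l by -0.21 (exact permutation p = 0.657). The ratio of Smoc2 to Smoc1 differed by -3.44 (exact permutation p = 0.0857), with Smoc1 at 0 reads in PBS replicates 2 and 3, so that its size rests on the added count of 1, and it ran from -4.92 without PBS replicate 1 to -2.69 without PBS replicate 3. Their adjusted values were 0.8, 0.789 and 0.129 in that order.

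The 3 further pairs of a marker and a tested paralogue were added after the data were seen. The preset pairs had set Tnfrsf19 and Slc12a2 beside relatives with hardly any reads, and Lrig1 beside Lrig3 but not Lrig2. The log2 ratio of Tnfrsf19 to Eda2r went the other way, from -1.08 ± 0.26 after PBS to -0.19 ± 0.43 after TNF (SD), a difference of 0.90 with all TNF libraries above all PBS libraries (exact permutation p = 0.0571). For Lrig1 to Lrig2 the difference was -1.02, with all TNF libraries below all PBS libraries (exact permutation p = 0.0286). For Slc12a2 to Slc12a3 the difference was 1.06 and the groups overlapped (exact permutation p = 0.143). Adjusted over all 9 pairs, the lowest value was 0.0643 and 0 passed.

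Among 20 further genes of the crypt base stem cell signature, 16 were lower and 4 were higher, with a median log2 fold change of -1.06. Cyp2e1, a cytochrome P450, was almost lost from the libraries, with 439 reads in the PBS group against 2 in the TNF group. Its PBS to TNF ratio was 276, with a 95% counting interval from 76 to 2290. Prelp, a matrix proteoglycan, was at 44.7 ± 7.51 CPM after PBS and 0.342 ± 0.335 CPM after TNF (SD), with a log2 fold change of -6.98 ± 0.33 (edgeR adjusted p = 3.79e-09) that was -7.93 without TNF replicate 1. Fstl1, a secreted follistatin-like protein, had 365 reads after PBS and 8 after TNF, with a log2 fold change of -5.74 ± 0.56 (edgeR adjusted p = 1.04e-06). The most abundant genes of the list fell less, Clca3b with a log2 fold change of -0.65 ± 0.14 (edgeR adjusted p = 0.00101) and Soat1, a cholesterol esterifying enzyme, with -0.55 ± 0.10 (edgeR adjusted p = 0.000351).

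The genes that rose in this list were led by Igfbp4, a binding protein of insulin-like growth factors. It was at 37.2 ± 6.42 CPM after PBS and 139 ± 4.43 CPM after TNF (SD), with a log2 fold change of 1.90 ± 0.12 (edgeR adjusted p = 2.5e-08). Slco3a1, an organic anion transporter, rose with 0.67 ± 0.12 (edgeR adjusted p = 0.000318). Sectm1b was called higher with 0.51 ± 0.20 (edgeR adjusted p = 0.0463), but its groups overlapped. The call was lost in 10 of 15 alternatives, among them without PBS replicate 1 or 3 or TNF replicate 2, 3 or 4.

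Wnt-responsive genes were mixed. Of 16 listed and tested, 8 were lower, 2 were higher and 6 were not called, with a median log2 fold change of -0.44. Axin2, a feedback inhibitor that is the common readout of Wnt signalling, was at 154 ± 11.9 CPM after PBS and 44.7 ± 6.94 CPM after TNF (SD), with a log2 fold change of -1.78 ± 0.12 (edgeR adjusted p = 3.97e-08). Notum, a secreted enzyme that inactivates Wnt proteins, was at 4.53 ± 2.09 CPM after PBS and 0.503 ± 0.278 CPM after TNF, with -3.17 ± 0.50 (edgeR adjusted p = 8.48e-05). Lef1, a transcription factor of the pathway, was scarce, at 1.57 CPM after PBS and 0.572 CPM after TNF (edgeR adjusted p = 0.0284). Its call was lost in 6 of 15 alternatives, among them without PBS replicate 1 or 2 or TNF replicate 2 or 3.

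Rnf43 and Znrf3, named here after their values were seen, encode the ubiquitin ligases that remove Wnt receptors and are the partners of the LGR receptors. Rnf43 was at 118 ± 5.37 CPM after PBS and 67.9 ± 6.21 CPM after TNF (SD), and Znrf3 was at 67.8 ± 6.42 and 30.1 ± 0.55 CPM. Both were lower, with log2 fold changes of -0.79 ± 0.10 (edgeR adjusted p = 1.52e-05) and -1.17 ± 0.10 (edgeR adjusted p = 4.26e-07).

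Of the rest of the list, Nkd1 and Ccnd1 were also lower, Cd44 and Sp5 were higher and 6 genes were not called. Cd44, an adhesion receptor of crypt cells, rose from 67.7 ± 6.37 CPM to 166 ± 19.1 CPM (SD), with a log2 fold change of 1.30 ± 0.12 (edgeR adjusted p = 6.38e-07). Sp5, a transcription factor and direct Wnt target, rose with 1.15 ± 0.19 (edgeR adjusted p = 0.000153). Sox9, a transcription factor that PCs need, was at 408 ± 78.7 CPM after PBS and 520 ± 65.7 CPM after TNF (edgeR adjusted p = 0.0567), and it was called higher without PBS replicate 2 or TNF replicate 1.

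Of 6 genes proposed as markers of slowly cycling or reserve stem cells, 3 were lower, 1 was higher and 2, Bmi1 and Clu, were not called. Sox4 had a log2 fold change of -2.09 ± 0.18 (edgeR adjusted p = 1.18e-06), Tert, the telomerase catalytic subunit, -2.05 ± 0.48 (edgeR adjusted p = 0.00216) and Hopx -0.60 ± 0.11 (edgeR adjusted p = 0.000246). Krt19, a keratin of crypt cells, was at 200 ± 17.3 CPM after PBS and 719 ± 25.3 CPM after TNF (SD), with a log2 fold change of 1.84 ± 0.11 (edgeR adjusted p = 1.6e-08). Bmi1 was at 31.7 ± 3.23 CPM after PBS and 31.5 ± 0.926 CPM after TNF (edgeR adjusted p = 0.969).

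Genes of DNA replication and mitosis were examined because cycling stem cells and progenitors carry them. Of 20, 12 were lower, 4 were higher and 4 were not called, with a median log2 fold change of -0.67, and their summed CPM were 814 to 869 after PBS and 508 to 636 after TNF. Mki67 was at 183 ± 9.98 CPM after PBS and 67.2 ± 16.4 CPM after TNF (SD), with a log2 fold change of -1.45 ± 0.15 (edgeR adjusted p = 3.42e-06). Top2a, the topoisomerase of dividing cells, had -1.12 ± 0.10 (edgeR adjusted p = 4.48e-07). Of the mitotic genes, Ccnb2, a cyclin, had -1.73 ± 0.20 (edgeR adjusted p = 6.35e-06) and Birc5, survivin, had -1.50 ± 0.22 (edgeR adjusted p = 5.82e-05). Tk1, thymidine kinase 1, had -2.58 ± 0.44 (edgeR adjusted p = 0.000403), and -3.38 without TNF replicate 1.

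The 4 genes called higher in the proliferation list were Pcna, Rrm2, Mcm3 and Mcm2. Pcna, the polymerase clamp, had a log2 fold change of 0.96 ± 0.19 (edgeR adjusted p = 0.000673) and Rrm2, a ribonucleotide reductase subunit, had 0.86 ± 0.14 (edgeR adjusted p = 0.000139). Mcm3, of the replicative helicase, was called higher with 0.44 ± 0.16 (edgeR adjusted p = 0.0288). This call was lost in 7 of 15 alternatives, among them without PBS replicate 1 or 2 or TNF replicate 3 or 4. Other genes of DNA synthesis in the list differed, as Mcm5 was lower with -0.51 ± 0.16 (edgeR adjusted p = 0.0154), and Mcm6 and Tyms were not called. The number called higher in this list fell from 4 to 2 on leaving out any 1 of those libraries.

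**Figure D4:**
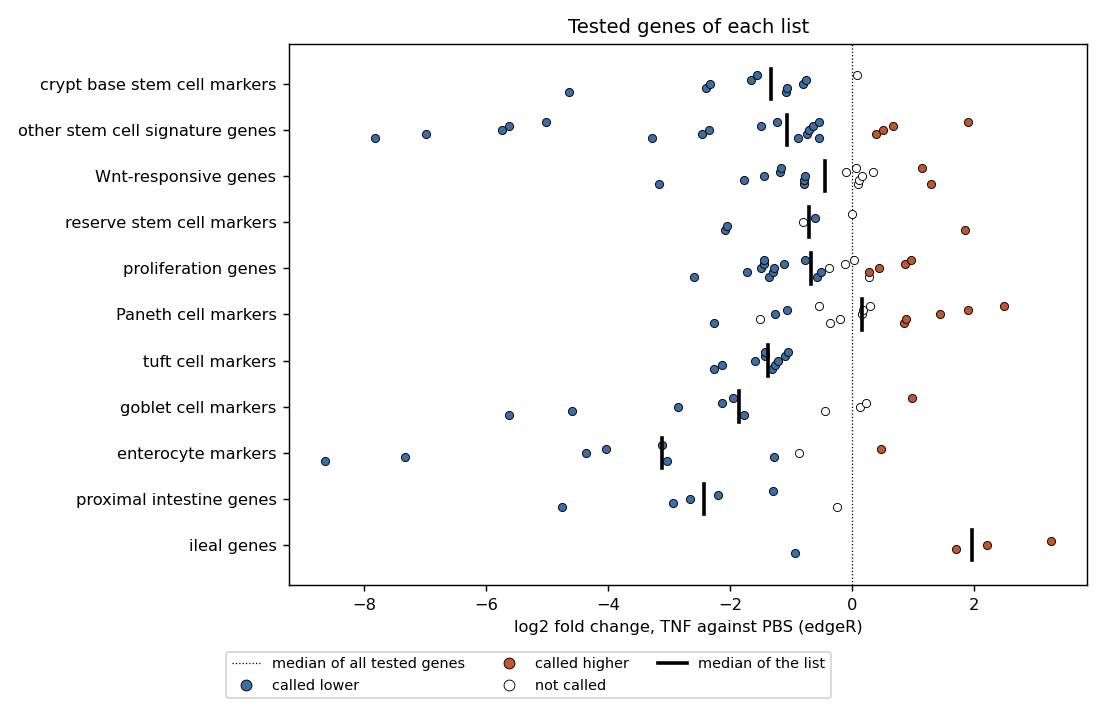
Log2 fold change, TNF against PBS, of every tested gene in 11 lists, with a black bar at each list's median, blue for called lower, orange for called higher and white for not called, and a dotted line at the median of all tested genes. Stem cell markers other than Slc12a2 are blue (median -1.32), as are all tuft cell markers (median -1.37), while the PC markers (median 0.17) and the Wnt-responsive genes (median -0.44) hold all of the colours.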

How the data were processed

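The authors deposited whole-number raw read counts per gene for 7 libraries, which were used as deposited. The submitters' notes name FastQC, Trimmomatic 0.39, STAR 2.7.10a, DESeq2 and both mm10 and mm39. The sources used here do not give the counting program, annotation or strand setting. Symbols, coordinates and exon lengths were taken by identifier from GENCODE M39 on GRCm39, in which 98.8% of identifiers were found and which may differ from the annotation used for counting. Totals of 15511455 to 19193721 counts limit genes with few reads, such as Ascl2 after TNF. Intervals of ratios cover counting error only.

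TNF was compared with PBS over all 7 libraries without covariates in R 4.3.3 with edgeR 4.0.16 (robust quasi-likelihood fit, TMM scaling, filterByExpr, Benjamini-Hochberg over 14329 genes, threshold 0.05). SE were derived from each fitted change and its F statistic. Called means past that threshold. In simulated data, 200 genes were changed and 14023 genes were tested. There, 95.7% of genes made 4-fold lower and 64.6% made 2-fold lower were called, and 0.0868% of unchanged genes. In the real libraries 59.6% of tested genes were called, so these simulated shares do not carry over to them. Ratios of counts + 1 were tested by exact permutation over 10 preset pairs, of which the 6 with a mean of at least 10 counts per library in both genes were tested, and 3 further pairs were added after seeing the data.

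The markers, the lists and the rule for named genes were chosen with earlier results of these data known. The rule named the 10 markers, their tested paralogues, and from the signature, Wnt, reserve and proliferation lists the 3 largest called falls and rises and the 2 most abundant genes. It also named the most abundant gene of each list of another cell type or position. Other genes were named after their values were seen. Sums of list CPM were also taken without the gene most abundant after TNF, a choice made after seeing the data. Some listed genes are not reported here. Replicate numbers do not mark shared mice, since each library came from another mouse. Alternatives were other scalings, filters, DESeq2 1.42.0, the replicate number as a block, a 2-fold minimum, a pseudocount of 0.5 and leaving out each library.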

Additional observations from a re-analysis of the deposited data

Results flagged for a closer look

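In the TNF group, 71 values were examined for a library standing apart from the other 3 by Dixon's ratio of gap to range, and 6 passed its 95% limit for 4 values. Chance passes about 1 in 20 such groups. One stem cell marker was among them, Lrig1 with a ratio of 0.832, for which TNF replicate 4 was highest at 126 CPM beside 101 to 105 CPM in the others. Rnf43 had a ratio of 0.916, with TNF replicate 2 lowest at 58.6 CPM beside 70.3 to 71.4 CPM. Prelp had a ratio of 0.852, with TNF replicate 1 highest at 0.840 CPM beside 0.131 to 0.236 CPM, and Tk1 had a ratio of 0.904, with TNF replicate 1 highest at 5.15 CPM beside 1.12 to 1.51 CPM. Anpep, the most abundant enterocyte marker, had a ratio of 0.927, with TNF replicate 4 highest at 49.7 CPM beside 41.0 to 41.6 CPM. Hoxb9, an ileal gene, had a ratio of 0.859, with TNF replicate 1 lowest at 40.5 CPM beside 45.7 to 46.5 CPM. Without the library that stood apart, Lrig1, Rnf43, Prelp, Tk1, Anpep and Hoxb9 each kept their direction and an edgeR adjusted p under 0.05.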

How the results depend on the processing

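The 9 stem cell markers remained lower under each alternative except the 2-fold minimum, which kept 7 and left out Smoc2 and Tnfrsf19, and 0 were higher under any. With libraries left out in turn, log2 fold changes ran from -4.96 to -4.41 for Ascl2, from -2.44 to -2.24 for Lgr5 and from -0.97 to -0.65 for Tnfrsf19. With total counts only, the median of all genes moved to -0.16 and that of the markers to -1.49, and Slc12a2 turned to -0.099 (edgeR adjusted p = 0.563) and Muc2 to -0.014. Total counts only left 2 signature and 2 proliferation genes higher. The 2-fold minimum left 4530 calls of 8543, with 5 Wnt-responsive and 10 signature genes lower and 1 signature and 0 proliferation genes higher, since it asks for more. Without 1 library, proliferation genes called higher ran from 2 to 5, Lrig2 ran from -0.148 to 0.008 (without PBS replicate 3) and Muc2 from -0.107 (without PBS replicate 2) to 0.37. The log2 ratio difference of Rgmb to Rgma ran from -0.257 to 0.534 (-0.216 without TNF replicate 4) and that of Cdca7 to Cdca7l from -0.409 to 0.033. With the replicate number as a block, 9 markers were lower and 0 higher, 7255 genes were called, 2 proliferation genes were higher and the Rgmb to Rgma difference was -0.216. Deviations of same-numbered libraries correlated with r = -0.398, -0.047 and -0.227, and r of the other pairs ran from -0.264 to 0.42. With so few libraries, these values cannot show whether the numbers mark a shared batch. Causes of these changes were not tested.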
